A study of Mus musculus with 8 samples.

Results

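The collagen genes were examined in the RPE/choroid, the retinal pigment epithelium (RPE) together with the vascular choroid beneath it, of young and old mice. Members were the genes whose symbol is Col, a number, the letter a and a number, measured by a probe set annotated to that gene alone, and there were 42 of them among 18193 genes. All animals were male C57BL/6 mice, 4 months old in the young group and 26 months old in the old group, with no other treatment or allele named. Each age had 4 samples, and each sample pooled 4 RPE/choroids from 2 animals, so 1 array shows the mean of a pool and the spread between arrays is that between pools. Labelled cRNA was hybridised to Affymetrix Mouse 430 2.0 arrays, 1 array per sample, on which a probe set is a group of short probes to 1 transcript and gives 1 fluorescence intensity. The dissected tissue holds RPE, vessels, fibroblasts, pigment and immune cells, and fewer cells of a type cannot be told apart from less RNA per cell.

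Collagens are proteins of 3 chains wound into a triple helix, and their classes differ in what the helices build. Fibrillar collagens form the ropes of connective tissue, fibril-associated collagens decorate the surface of those ropes, type VI forms beaded filaments around cells, and type IV forms the sheet of basement membranes. Beneath the RPE lies Bruch's membrane, a layered matrix with the basement membranes of the RPE and of the choroidal capillaries on its faces and collagen and elastin between them, which is known to thicken with age. The outer choroid adjoins the sclera, a dense sheet of fibrillar collagen.

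In old animals, 9 collagen genes were higher and 6 were lower at an adjusted p under 0.05 (limma, Benjamini-Hochberg over 45037 probe sets), and 27 did not pass. Against the background this was 21.4% of members higher, where 11.8% of all genes were, and 14.3% lower, where 9.56% of all genes were. The members that rose were Col12a1, Col20a1 (by 1 of its 4 probe sets), Col14a1 and Col16a1 of the fibril-associated class, Col6a3 and Col6a1 of type VI, Col4a2 of basement membranes, Col10a1 of the short-chain class and the fibrillar Col5a1. Those that fell were Col4a6 and Col4a4 of basement membranes, Col8a1 of the short-chain class, Col9a3 of the fibril-associated class, the transmembrane Col25a1 and the fibrillar Col5a3. With the study's threshold, a fold change over 2 and an adjusted p under 0.01, 1 member passed upward, Col12a1, against 1.13% of all genes, and 0 passed downward, against 0.0989% of all genes. Without any adjustment, 20 members (47.6%) had p under 0.05, as did 37.4% of all genes. The median log2 fold change of the 42 members was -0.05, and that of all genes was -0.02.

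Every old array lay above every young array for 9 members, where 15.8% of all genes showed that pattern, and every old array lay below every young array for 8, where 13.7% did. For the other 25 members the ages overlapped. By signal, 31 of the 42 members lay above the median probe set of the array on all 8 arrays. Col6a4, Col6a5, Col9a2, Col11a2, Col17a1, Col19a1 and Col26a1, 7 members, lay below it on all 8 arrays. The other 4, Col2a1, Col24a1 and the called genes Col5a3 and Col10a1, lay on both sides.

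**Figure D1:**
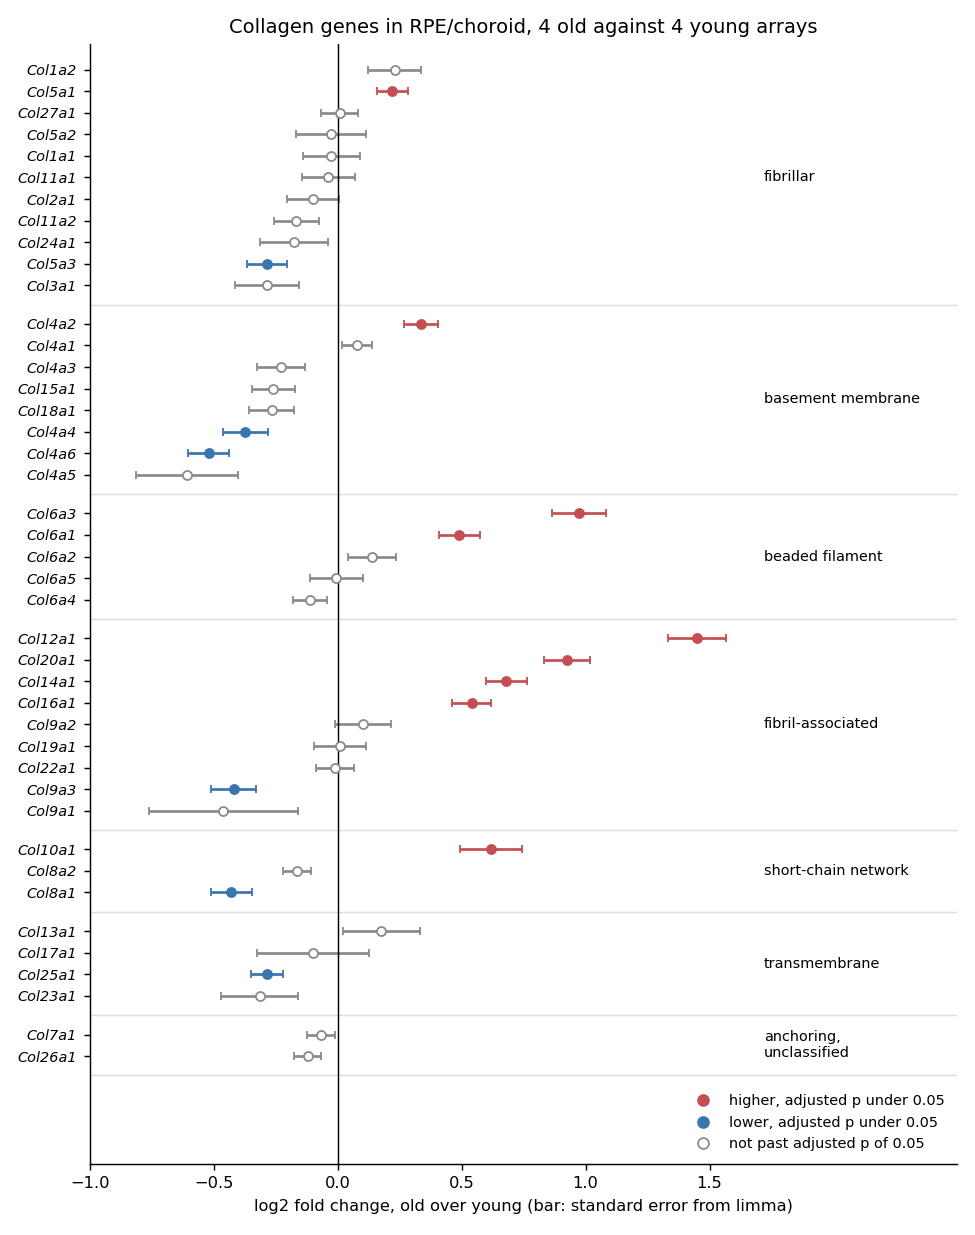
Log2 fold change (old over young) of each of the 42 collagen genes, grouped by class, with the standard error from limma as the bar (4 arrays per age). Filled red points are the 9 genes that were higher and filled blue points the 6 lower ones (adjusted p under 0.05), and Col12a1 lies farthest to the right at 1.45.

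Markers of other cells moved with age in the same arrays, in which 11.8% of all genes were higher and 9.56% lower. Of 10 fibroblast markers 3 were higher, led by Fn1 (log2 fold change 1.92). The median log2 fold change of the 10 was 0.03, with 6 positive and 4 negative, so the list did not rise as a whole. Their summed intensities were 22512 to 23786 in the young group and 23990 to 27602 in the old group. Within these sums Fn1 was at 388 to 492 in young arrays and 1474 to 1931 in old arrays. Of 12 markers of scleral and cartilage cells 5 were higher, led by Comp (1.40), with young sums of 6545 to 8688 and old sums of 10627 to 13224. The median log2 fold change of the 12 was 0.21, with 8 positive and 4 negative. Among macrophage markers 7 of 10 were higher, with young sums of 12029 to 13468 and old sums of 20550 to 23146. Endothelial markers were lower for 7 of 10, among them Tie1 (-0.61), Cdh5 (-0.41) and Cldn5 (-0.98), with young sums of 13942 to 17074 and old sums of 10475 to 12767. Of 10 RPE markers 5 were lower, and their young sums were 91954 to 94259 and old sums 82004 to 87389, so the labelled tissue carried its defining genes in every array. Of 10 Mueller glia markers 1 was higher and 2 were lower, Slc1a3 (-1.41) and Gfap (-0.98), and the mean of their centred log2 values ran from 0.11 to 0.19 in the young group and from -0.34 to 0.04 in the old group, while their sums overlapped. Of 5 markers of bone-forming cells 1 was higher and 1 was lower, with young sums of 849.7 to 967 and old sums of 767 to 817. Pericytes and smooth muscle had 1 of 10 markers higher and 1 lower, Schwann cells had 0 of 6 higher and 2 lower, and rods had 0 of 8 called, each with overlapping sums. None was called for skeletal muscle, lens and cornea or epidermal epithelium. None of the markers was at 0. The part of these cell types in the collagen values was not tested.

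The fibrillar class had 11 members, of which 1 was higher and 1 was lower, and its median log2 fold change was -0.04. Col1a1 and Col1a2 encode the chains of type I collagen, the main fibre of sclera and dermis. Col1a2, the member of this class with the highest mean signal, was at 5506, 4543, 4047 and 4577 in young replicates 1 to 4 and 6109, 5022, 5843 and 4885 in old replicates 1 to 4. The ages overlapped, and its difference did not pass the test (log2 fold change 0.23 ± 0.11, adjusted p = 0.169). Its other probe sets gave log2 fold changes of 0.49 (adjusted p = 0.0219) and 0.66 (adjusted p = 0.0224), both called higher, so the outcome for Col1a2 depended on the probe set. Col1a1 had a log2 fold change of -0.03 ± 0.11 (adjusted p = 0.899), and Col3a1, of the type III fibres common in vessel walls, had -0.29 ± 0.13 (adjusted p = 0.153). Without old replicate 1 Col3a1 was called lower, at -0.41 (adjusted p = 0.0216).

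Type V collagen lies in the core of type I fibrils and limits their diameter, and of its chain genes 1 rose, 1 fell and 1 was not called. The intensity of Col5a1 was 262, 279, 269.7 and 271 in young replicates 1 to 4 and 337, 304, 333 and 288 in old replicates 1 to 4, and no old array fell to the level of a young one (log2 fold change 0.22 ± 0.06, adjusted p = 0.0415). Other probe sets of Col5a1 gave 0.21 (adjusted p = 0.0372), called higher, and 0.08 (adjusted p = 0.466), not called. Col5a3 was at 147, 135, 150.4 and 161 in young replicates 1 to 4 and 136, 112, 115 and 125 in old replicates 1 to 4. It was lower (log2 fold change -0.28 ± 0.08, adjusted p = 0.0377), although old replicate 1 lay above the lowest young array and its other probe set had a log2 fold change of -0.00 (adjusted p = 0.994). Col5a2 had -0.03 ± 0.14 (adjusted p = 0.921). Both calls lay close to the threshold, and leaving out 1 array took away the Col5a1 call for any of young replicates 1 to 4 and old replicates 1, 2 and 3, and the Col5a3 call for any of young replicates 1, 3 and 4 and old replicates 2, 3 and 4. In these fits the log2 fold change stayed between 0.19 and 0.24 for Col5a1 and between -0.30 and -0.24 for Col5a3. The remaining members, Col2a1, Col11a1, Col11a2, Col24a1 and Col27a1, ranged from -0.17 to 0.01 in log2 fold change, and none passed the test.

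The fibril-associated class had 9 members, of which 4 were higher and 1 was lower, with a median log2 fold change of 0.10. Col12a1 encodes type XII collagen, which coats fibrils in dense connective tissue such as tendon, cornea and sclera. Its intensity was 881, 678, 673 and 912 in young replicates 1 to 4 and 2358, 2066, 2178 and 1911 in old replicates 1 to 4. Each old array was at least 1911 and each young array at most 912, and the means of the log2 values differed 2.73-fold (log2 fold change 1.45 ± 0.12, adjusted p = 9.15e-05). Among its other probe sets, 1 was also higher (log2 fold change 0.74, adjusted p = 0.000574), and those with low signal gave 0.19 (adjusted p = 0.184) and -0.13 (adjusted p = 0.154).

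Type XIV collagen, from Col14a1, is a close relative of type XII found on the same fibrils. Col14a1 was at 571, 609.7, 483 and 553 in young replicates 1 to 4 and 976, 851, 881 and 839 in old replicates 1 to 4, with the ages well apart (log2 fold change 0.68 ± 0.08, adjusted p = 8.19e-04). A further probe set of it was higher as well (0.59, adjusted p = 0.000809), and another was not called (0.31, adjusted p = 0.0826). Col16a1, whose product joins fibrils and microfibrils, was at 532, 475, 453 and 512 in young replicates 1 to 4 and 739, 776, 717 and 638 in old replicates 1 to 4. All 4 old arrays lay above all 4 young arrays (log2 fold change 0.54 ± 0.08, adjusted p = 0.00212).

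Col20a1, a gene related in sequence to Col12a1 and Col14a1, was at 156, 167, 148 and 145 in young replicates 1 to 4 and 251, 310.5, 335 and 280.4 in old replicates 1 to 4. By this probe set, which has the highest signal of those for the gene, it rose (log2 fold change 0.93 ± 0.09, adjusted p = 2.91e-04). Another probe set fell (log2 fold change -0.27, adjusted p = 0.0112), and the remaining ones gave -0.01 (adjusted p = 0.924) and -0.12 (adjusted p = 0.193), so the direction for Col20a1 was not settled. It was the only member with probe sets called in both directions. The mean of all its probe sets had a log2 fold change of 0.13 (adjusted p = 0.0895).

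Type IX collagen sits on type II fibrils in cartilage and vitreous. Its gene Col9a3 was at 2703, 2218, 2058 and 2101 in young replicates 1 to 4 and 1747, 1596, 1627 and 1788 in old replicates 1 to 4. Here the young arrays were the higher ones, without overlap (log2 fold change -0.42 ± 0.09, adjusted p = 0.0138). All 3 probe sets of Col9a3 were lower, the others at -0.39 (adjusted p = 0.0056) and -0.58 (adjusted p = 0.0295). The one at -0.58 had very low signal, at most 15.1 in young and 12.2 in old arrays, and adds little. Col9a1 was at 368, 273, 660.4 and 651 in young replicates 1 to 4 and 279, 251, 384 and 445 in old replicates 1 to 4. The young replicates 3 and 4 stood above young replicates 1 and 2, and the difference between ages did not pass the test (log2 fold change -0.46 ± 0.30, adjusted p = 0.317). The other probe set of Col9a1 gave -0.004 (adjusted p = 0.988). Col9a2, Col19a1 and Col22a1 had log2 fold changes of 0.10, 0.01 and -0.01, none of them called.

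Type VI collagen is assembled from an alpha 1 chain, an alpha 2 chain and an alpha 3 or related chain into beaded filaments that lie next to basement membranes. Of its 5 measured genes 2 were higher and 0 were lower, with a median log2 fold change of 0.14. Col6a3 was at 449, 459, 387 and 420.5 in young replicates 1 to 4 and 987, 763, 923 and 715 in old replicates 1 to 4, a 1.96-fold difference of the means of the log2 values with the ages well apart (log2 fold change 0.97 ± 0.11, adjusted p = 5.39e-04). Col6a1 was at 712, 649.9, 584 and 689.6 in young replicates 1 to 4 and 973, 881, 1011 and 841 in old replicates 1 to 4, also without overlap (log2 fold change 0.49 ± 0.08, adjusted p = 0.00467). Col6a2, the member of this class with the highest mean signal, was at 916, 869, 769 and 830.4 in young replicates 1 to 4 and 1104, 862, 958 and 821 in old replicates 1 to 4. Its ages overlapped and it was not called (log2 fold change 0.14 ± 0.10, adjusted p = 0.355). Col6a4 (-0.11, adjusted p = 0.292) and Col6a5 (-0.00, adjusted p = 0.98), the alternatives to the alpha 3 chain, lay below the median probe set on all arrays.

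The probe sets that stand for the chains of type VI differed in the size of their change. Each ratio compares 1 probe set per gene, and probe sets of the same gene can differ too, as for Col12a1 (1.45 and 0.74). The other probe set of Col6a2 gave 0.20 (adjusted p = 0.189). Whether the chains themselves differed was not tested. The log2 ratio of Col6a3 to Col6a2 was higher in old arrays by 0.83, with SDs of 0.04 in young and 0.06 in old arrays, and that of Col6a1 to Col6a2 by 0.35, with SDs of 0.07 and 0.12. Neither ratio overlapped between ages. A ratio of this kind was taken for 10 pairs of chains that share a collagen type and is given as a description with no test, and in 7 of the 10 pairs the ages overlapped.

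The basement membrane class had 8 members, of which 1 was higher and 2 were lower, and its median log2 fold change was -0.26. Col4a1 and Col4a2 encode the chains of the type IV collagen present in nearly all basement membranes. Col4a2 was at 1104, 1179, 1011 and 1077 in young replicates 1 to 4 and 1297, 1499, 1341 and 1381 in old replicates 1 to 4, with all old arrays above all young arrays (log2 fold change 0.34 ± 0.07, adjusted p = 0.0103). Col4a1 was at 1273, 1473, 1356 and 1435 in young replicates 1 to 4 and 1512, 1482, 1432 and 1416 in old replicates 1 to 4. Its ages overlapped and it was not called (log2 fold change 0.08 ± 0.06, adjusted p = 0.401). The log2 ratio of Col4a2 to Col4a1 differed by 0.26 between the ages, with overlap between the arrays.

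Col4a3, Col4a4 and Col4a5 encode the chains of the type IV network of specialised basement membranes such as that of the kidney glomerulus, and Col4a5 and Col4a6 those of a network in smooth muscle and skin. Col4a4 was at 1317, 1149, 1037 and 1085 in young replicates 1 to 4 and 1009.7, 837, 826 and 869 in old replicates 1 to 4. No old array reached the lowest young array, and the gene was lower (log2 fold change -0.37 ± 0.09, adjusted p = 0.0234) in all 3 of its probe sets, the others at -0.44 (adjusted p = 0.0195) and -0.42 (adjusted p = 0.0014). Leaving out young replicate 1 or old replicate 2, 3 or 4 took the call away, with log2 fold changes between -0.36 and -0.30. Col4a3 had -0.23 ± 0.10 (adjusted p = 0.13).

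Col4a6 was at 394, 352, 433 and 449 in young replicates 1 to 4 and 289, 267, 282 and 292 in old replicates 1 to 4. The old arrays were close together and all below the young ones (log2 fold change -0.52 ± 0.08, adjusted p = 0.00306), and its second probe set gave -0.33 (adjusted p = 0.241). Col4a5 had the largest fold change of any member not called (log2 fold change -0.61 ± 0.21, adjusted p = 0.0698). Its intensity was 636, 685, 1073 and 1186 in young replicates 1 to 4 and 616, 454, 592 and 618 in old replicates 1 to 4. All old arrays lay below all young arrays, but young replicates 3 and 4 stood far above young replicates 1 and 2, and without young replicate 1 the gene was called lower at -0.76 (adjusted p = 0.0409). Markers of skeletal muscle also differed between these arrays: over the 10 genes listed for it, the summed intensity was 1668 and 1564 in young replicates 1 and 2, 2598 and 2896 in young replicates 3 and 4, and 2700, 1520, 1766 and 1402 in old replicates 1 to 4, and none of the 10 was called or at 0. Young replicates 3 and 4 also stood above young replicates 1 and 2 in several other members, among them Col9a1, Col23a1 and the called genes Col4a6 and Col5a3. The second probe set of Col4a6 was at 207 and 238 in young replicates 1 and 2 and at 350 and 389 in young replicates 3 and 4. Some markers on other lists split the young arrays likewise, such as Aqp4 (360, 387, 627 and 594 in young replicates 1 to 4). Fbln1 (1107, 1249, 1861 and 1892) and Matn3 (126, 272, 479 and 448) did so too. Others did not, such as Lum (4284, 4956, 4323 and 4503). The part of skeletal muscle or of other cells in the values of Col4a5 and of the other members named here was not tested.

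The genes Col4a5 and Col4a6 lie head to head on the X chromosome, with a gap between their start sites, which are 1343 bases apart. Col4a1 and Col4a2 also lie head to head, but their annotated start sites, 21 bases apart, have no gap between them. The start of each lies inside the other gene, so their first bases overlap. The 250 bases upstream of each start are shown for the first pair because the gene on the minus strand was lower and its partner on the plus strand missed the threshold. They are RefSeq sequence of the mouse genome build GRCm38.p6, written 5′ to 3′ along each gene, with capitals at matches to CCAAT or GGGCGG on either strand; Col4a5 is chrX:141475169-141475418, plus strand and Col4a6 is chrX:141474077-141474326, minus strand.
Col4a5: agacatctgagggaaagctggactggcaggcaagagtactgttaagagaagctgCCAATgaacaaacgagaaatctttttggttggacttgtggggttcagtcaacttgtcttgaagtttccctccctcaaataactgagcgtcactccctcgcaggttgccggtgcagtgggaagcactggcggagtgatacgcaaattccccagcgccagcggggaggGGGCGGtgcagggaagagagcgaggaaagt
Col4a6: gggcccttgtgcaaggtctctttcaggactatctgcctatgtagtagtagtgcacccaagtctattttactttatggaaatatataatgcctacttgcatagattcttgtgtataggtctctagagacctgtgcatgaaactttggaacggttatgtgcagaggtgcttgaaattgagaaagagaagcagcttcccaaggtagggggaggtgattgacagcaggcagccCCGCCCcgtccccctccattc
Col4a5 held CCAAT at -196 and GGGCGG at -30, counted from the start site to the first base of the match, and Col4a6 held GGGCGG at -21.

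Types XV and XVIII sit at the outer face of basement membranes of vessels and epithelia, and the end of type XVIII is released as endostatin. Col18a1, the member of the class with the highest mean signal, was at 2048, 1749, 2059.5 and 1962 in young replicates 1 to 4 and 1643, 1384, 1691 and 1801 in old replicates 1 to 4. Its ages overlapped and it missed the threshold (log2 fold change -0.27 ± 0.09, adjusted p = 0.0713), while its other probe set was lower (-0.26, adjusted p = 0.0305). Col15a1 was just outside the threshold too (-0.26 ± 0.09, adjusted p = 0.0659). Leaving out 1 array brought a call for each, Col18a1 without young replicate 2 (-0.32) and Col15a1 without old replicate 1 (-0.32).

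Short-chain collagens form hexagonal lattices, and their class held 3 members, of which 1 was higher and 1 was lower. Type VIII, from Col8a1 and Col8a2, is a component of the membrane under the corneal endothelium and of vessel walls. Col8a1 was at 8153, 7171, 6796 and 6976 in young replicates 1 to 4 and 6148, 5147, 5015 and 5315 in old replicates 1 to 4. Every old array lay below every young array (log2 fold change -0.43 ± 0.08, adjusted p = 0.00872), and its other probe sets had log2 fold changes of -0.61 (adjusted p = 0.0069) and -0.46 (adjusted p = 0.0579). Col8a2 was at 6585, 6519, 6048 and 6306 in young replicates 1 to 4 and 5988, 5374, 5599.6 and 5743 in old replicates 1 to 4, again with every old array below the young ones, but the difference did not pass the test (log2 fold change -0.17 ± 0.06, adjusted p = 0.0719). The log2 ratio of Col8a1 to Col8a2 was lower in old arrays by 0.26 (SDs of 0.08 in each age), with no overlap.

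Col10a1, whose protein is made by the hypertrophic cells of growing cartilage, was at 119, 139, 109 and 107 in young replicates 1 to 4 and 225, 158, 188 and 160.2 in old replicates 1 to 4. It rose (log2 fold change 0.62 ± 0.13, adjusted p = 0.0107), and old replicate 1 was the highest array. Col10a1 had 1 probe set, and its signal lay above the median probe set on only 5 of the 8 arrays. The 250 bases before the start of these 3 genes are given because the genes share a class while 1 rose, 1 fell and 1 was not called. Capitals mark matches on either strand to the TATA box TATAAA, to the box CCAAT, to the motif GGGCGG bound by Sp1 and to the Smad motif CAGACA, in RefSeq sequence of GRCm38.p6; Col8a1 is chr16:57754738-57754987, minus strand, Col8a2 is chr4:126286544-126286793, plus strand and Col10a1 is chr10:34389731-34389980, plus strand.
Col8a1: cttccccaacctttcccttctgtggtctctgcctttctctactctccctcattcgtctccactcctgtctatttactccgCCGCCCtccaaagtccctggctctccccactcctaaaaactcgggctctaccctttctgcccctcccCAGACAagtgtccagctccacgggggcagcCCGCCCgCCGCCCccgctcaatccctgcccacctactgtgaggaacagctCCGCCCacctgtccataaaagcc
Col8a2: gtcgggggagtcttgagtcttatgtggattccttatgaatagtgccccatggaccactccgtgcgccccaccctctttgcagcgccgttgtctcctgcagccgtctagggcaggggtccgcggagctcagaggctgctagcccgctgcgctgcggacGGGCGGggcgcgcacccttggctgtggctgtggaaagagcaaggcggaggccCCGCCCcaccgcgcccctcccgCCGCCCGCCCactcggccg
Col10a1: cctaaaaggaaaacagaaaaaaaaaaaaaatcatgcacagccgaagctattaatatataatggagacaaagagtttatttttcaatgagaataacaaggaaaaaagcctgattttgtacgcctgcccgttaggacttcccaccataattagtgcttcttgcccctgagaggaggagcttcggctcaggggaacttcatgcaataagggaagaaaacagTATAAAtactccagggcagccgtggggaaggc
Upstream of Col8a1 lay 4 matches to GGGCGG and 1 to CAGACA, and upstream of Col8a2 lay 4 matches to GGGCGG, of which 1 overlapped its neighbour. Col10a1 held TATAAA at -32 and none of the other motifs.

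Promoter sequence was at hand for 33 of the 42 members, with 36 upstream windows in all, and for 9 members there was none, Col12a1 and Col14a1 among them. GGGCGG was in 21 of the 36 member windows (58.3%) and in 32.7% of the 32851 windows of 27025 genes. It was in 3 of 7 windows of members that rose, 4 of 5 of members that fell and 14 of 24 of members not called. CCAAT was in 36.1% of member windows and 33.8% of all windows, TATAAA in 13.9% and 12.4%, and CAGACA in 22.2% and 17.1%. These matches are descriptions of the letters and were not tested.

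The transmembrane class had 4 members, with 0 higher and 1 lower. Col25a1, made chiefly by neurons, was at 285, 265, 263 and 290.0 in young replicates 1 to 4 and 215, 217, 247 and 228 in old replicates 1 to 4. The ages did not overlap (log2 fold change -0.28 ± 0.06, adjusted p = 0.0172), and its other probe set gave -0.18 (adjusted p = 0.118). Col23a1, the member of this class with the highest mean signal, was at 317, 359, 478 and 526 in young replicates 1 to 4 and 307, 307, 335 and 379 in old replicates 1 to 4, and it was not called (log2 fold change -0.31 ± 0.16, adjusted p = 0.193). Col17a1, of the hemidesmosomes that fix epithelia to their basement membrane, was highest in young replicate 4 and had -0.10 ± 0.23 (adjusted p = 0.799). That array also had the highest summed intensity of the 7 epidermal markers, 4856 against 2416 to 3054 in the 7 other arrays, and of the 8 lens and cornea markers, 4833. Their part in the Col17a1 value was not tested. Col13a1 was not called either (0.18 ± 0.16, adjusted p = 0.467).

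Col7a1, of the anchoring fibrils of skin, and Col26a1 made up the last class, and neither was called. Col7a1 was at 184, 165, 183 and 181 in young replicates 1 to 4 and 167, 177, 164 and 170.5 in old replicates 1 to 4, a set of overlapping values (log2 fold change -0.07 ± 0.06, adjusted p = 0.44). Col26a1 lay below the young arrays in all old arrays (-0.12 ± 0.06, adjusted p = 0.161).

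**Figure D2:**
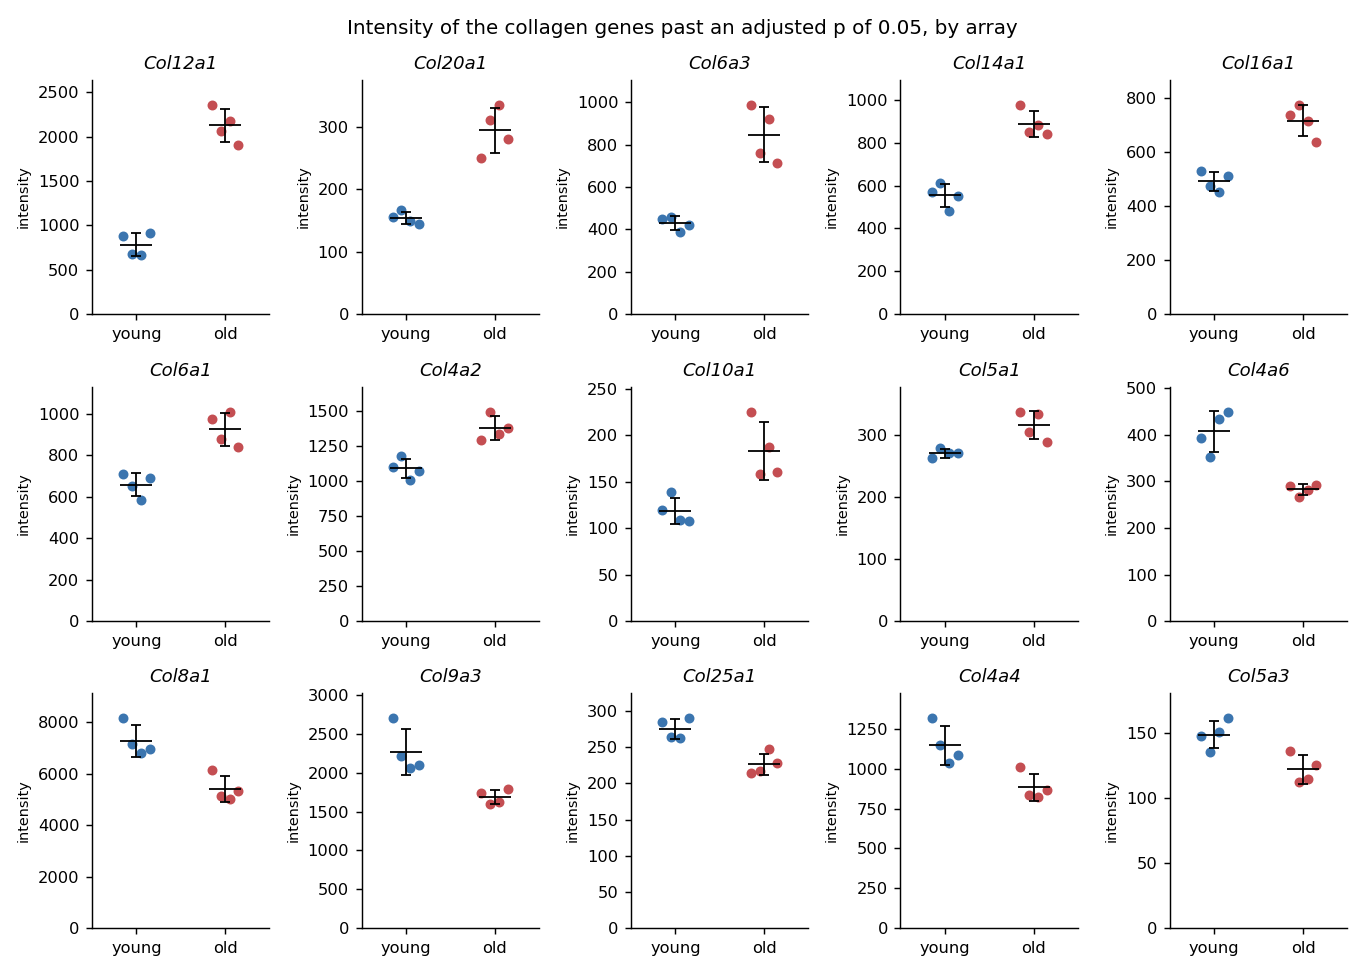
Intensity in each of the 8 arrays of the 15 collagen genes past an adjusted p of 0.05, with young arrays in blue and old arrays in red. Horizontal lines are group means with bars of 1 SD (4 arrays each) on a linear axis from 0. The ages overlap for Col5a3 and for none of the other 14 genes.

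Put on a common scale, with each gene's log2 value centred over the 8 arrays and averaged over its class, the class means ran in different directions. Fibril-associated collagens lay between -0.27 and -0.07 in young arrays and between 0.06 and 0.21 in old arrays. Part of this gap comes from Col12a1, with centred values of -0.93 to -0.50 in young arrays and 0.57 to 0.88 in old arrays. Another part comes from Col20a1, taken at its rising probe set though its direction was not settled. The centred values of Col20a1 were -0.55 to -0.35 in young arrays and 0.24 to 0.66 in old arrays. Of the 9 members of this class 4 were not called and 1 was lower. Type VI lay between -0.27 and -0.07 and between 0.04 and 0.24. Within it Col6a3 was at -0.63 to -0.39 in young arrays and 0.25 to 0.72 in old arrays. Of the 5 type VI genes 3 were not called. Basement membrane collagens lay between 0.05 and 0.20 in young arrays and between -0.22 and -0.05 in old arrays. Fibrillar, short-chain and transmembrane collagens overlapped between ages. Over all 42 members the young range, -0.08 to 0.07, overlapped the old range, -0.05 to 0.09.

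**Figure D3:**
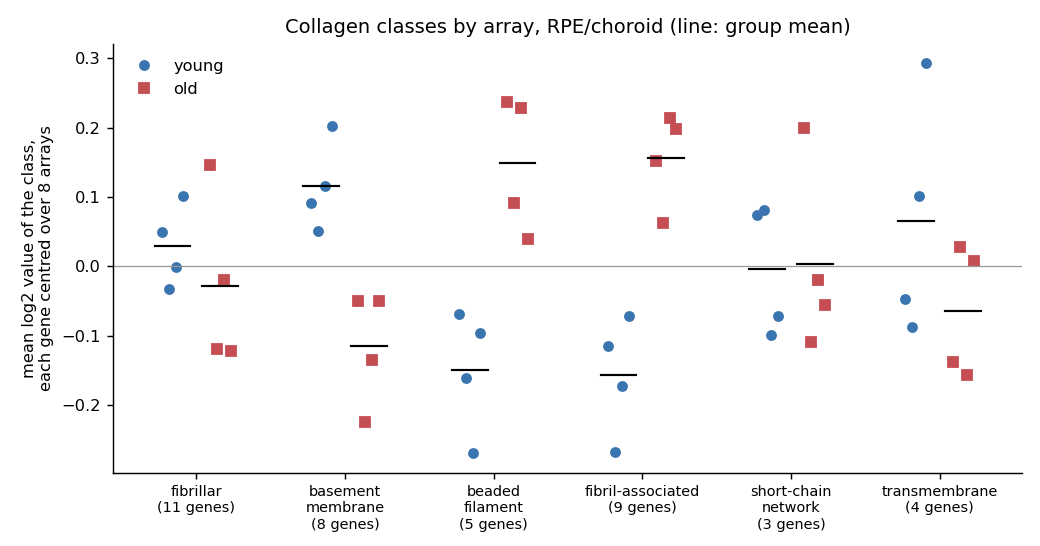
Mean log2 value of 6 collagen classes in each array after centring every gene over the 8 arrays, with young arrays as circles, old arrays as squares and a line at each group mean. Beaded filament and fibril-associated classes lie higher, and the basement membrane class lower, in all old arrays, while the other 3 classes overlap. The fibril-associated class includes Col20a1 by its rising probe set. Col12a1 and Col6a3 had the largest changes within the fibril-associated and beaded filament classes.

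Probe sets of a gene were a second view of the same arrays. The 42 members had 82 probe sets, with 1 for 15 genes and up to 4 for the other 27, and 14 of the 82 (17.1%) were higher and 13 (15.9%) lower. Of the 34945 probe sets annotated to 1 gene, 10.5% were higher and 9.14% lower. Only for Col1a2 and Col18a1 was another probe set called when the one with the highest signal was not. Of the 15 members called, Col20a1 had a probe set called the opposite way. Col4a2, Col6a1, Col6a3, Col10a1 and Col16a1, all called higher, had 1 probe set each, so no second view was at hand for them.

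**Figure D4:**
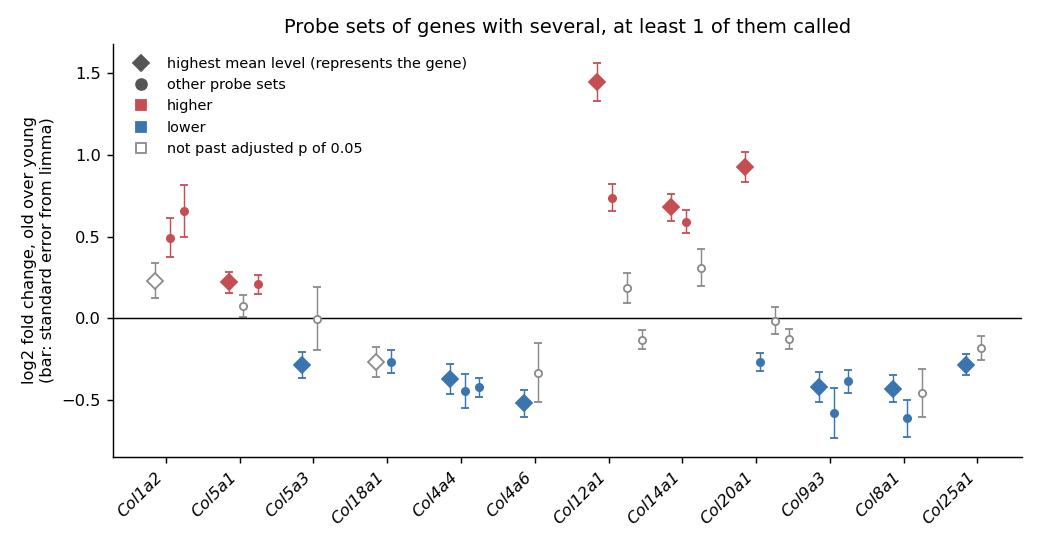
Log2 fold change (old over young, with the standard error from limma) of each probe set of the 12 genes that have several probe sets and at least 1 of them called. Diamonds are the probe sets that represent the gene and circles the others, filled where called. Col4a4 and Col9a3 have all their probe sets lower (that of Col9a3 at -0.58 has very low signal), and Col20a1 has probe sets called on both sides of 0.

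Making a collagen also takes enzymes that hydroxylate and fold the chains, proteases and cross-linkers that finish the fibre outside the cell, receptors that bind it and proteases that cut it. The share to set beside each of these lists is that over all genes, 11.8% higher and 9.56% lower, and no list was tested as a set. Of 20 measured genes for hydroxylation, folding and export, 6 were higher and 0 were lower, with a median log2 fold change of 0.15. Their log2 fold changes were positive for 13 and negative for 7. The lowest was that of Serpinh1, which was not called (-0.35 ± 0.14, adjusted p = 0.114). Colgalt1, which adds galactose to hydroxylysine, rose from a mean of 921 ± 44.9 to 1167 ± 27.9 (SD, n = 4 arrays; log2 fold change 0.34 ± 0.05, adjusted p = 0.00345). P4hb, a subunit of prolyl hydroxylase, rose too (log2 fold change 0.27 ± 0.05, adjusted p = 0.00792), as did P3h4, which takes part in lysine hydroxylation (log2 fold change 0.26 ± 0.05, adjusted p = 0.0102).

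Of 11 measured genes for propeptide removal, cross-linking and assembly, 2 were higher and 1 was lower, where 11.8% and 9.56% of all genes were. Counts this small do not set the list apart from all genes. Lox, lysyl oxidase, the enzyme that cross-links collagen and elastin, was at 504, 498, 477 and 433 in young replicates 1 to 4 and 1067, 1035, 847 and 819 in old replicates 1 to 4, with every old array above every young array (log2 fold change 0.97 ± 0.10, adjusted p = 3.12e-04). Pcolce2, an enhancer of procollagen processing, was higher (log2 fold change 0.36 ± 0.08, adjusted p = 0.0161), and Loxl4, a relative of Lox, was lower (log2 fold change -0.41 ± 0.07, adjusted p = 0.00495). Among 9 collagen receptors and uptake genes 3 were higher and 0 lower: the leukocyte inhibitory receptor Lair1 (log2 fold change 0.93 ± 0.09, adjusted p = 2.50e-04), the endocytic receptor Mrc2 (log2 fold change 0.30 ± 0.07, adjusted p = 0.0229) and the platelet receptor Gp6 (log2 fold change 0.33 ± 0.08, adjusted p = 0.0239).

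Cleavage genes were higher in 4 of 6 cases and lower in 0, where 11.8% and 9.56% of all genes were, with a median log2 fold change of 0.92. Mmp8 and Mmp9, which enter that median, were not called, and in both old replicate 2 stood apart. Mmp8 was at 356 in that array and 103 to 135 in the other old arrays, and Mmp9 at 268 and 98.7 to 106. The lysosomal protease Ctsk was at 693, 771, 713 and 821 in young replicates 1 to 4 and 1761, 2079.7, 2559 and 2164 in old replicates 1 to 4 (log2 fold change 1.5 ± 0.11, adjusted p = 5.61e-05). Collagenase Mmp13 was at 37.0, 39.6, 33.6 and 41.1 in young replicates 1 to 4 and 169, 513, 309 and 329.7 in old replicates 1 to 4, the largest change on these pathway lists (log2 fold change 3.02 ± 0.27, adjusted p = 1.63e-04). For the gelatinase Mmp2 the values were 984, 923, 759 and 922 in young replicates 1 to 4 and 1629, 1903, 1892 and 1711 in old replicates 1 to 4 (log2 fold change 0.995 ± 0.09, adjusted p = 1.71e-04). All 3 had every old array above every young array.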

How the data were processed

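Total RNA was extracted from 8 pools of RPE/choroid, 4 young and 4 old, and labelled cRNA made from each was hybridised to 1 Affymetrix Mouse 430 2.0 array. The deposited values are linear intensities that the authors had normalized before deposition. Which of their routes made the table (RMA, the Dchip2006 invariant set with perfect match probes alone, or BRB-ArrayTools) is not given in the sources used here, so the effect of that step on the values is unknown. Array medians were 129 to 135, 8 to 14 values per array were below 1, and arrays of the same age correlated at 0.991 or more. Precision is limited by the number of arrays.

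Values were floored at 1, taken to log2 and tested with limma 3.58.1 (lmFit and eBayes) in R 4.3.3, old against young with no covariate, with Benjamini-Hochberg adjustment over 45037 probe sets after 64 controls were left out. The test was checked on simulated data. Of these 45037, 34945 were annotated to 1 gene, 932 to several and 9160 to none, by GEO's platform annotation, and only the first kind was used. Where a gene had several probe sets, the one of highest mean signal over the 8 arrays stood for it. Col6a6, Col21a1 and Col28a1 had no probe set of their own and were not analysed here. Values in every array are given for members past an adjusted p of 0.05 and the member of highest mean signal in each class. Errors given with ± are standard errors from limma unless SD is named.

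Alternatives were a floor of 16, quantile normalization or median centring, a filter that dropped low probe sets, a robust variance trend, array weights, a block for the replicate number, omission of single arrays, the probe set of smallest p or the mean of probe sets, and the study's threshold. Motifs were searched on both strands of RefSeq upstream windows. The members, classes, pathway lists, marker lists (textbook knowledge) and tests were chosen with earlier results of these data known.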

Additional observations from a re-analysis of the deposited data

Results flagged for a closer look

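In each age group of 4 arrays, the array at either end was compared with its nearest neighbour, and 5 of 92 groups screened held an array whose gap, as a share of the group's range, was above Dixon's critical value for 4 samples. Chance alone gives such a gap in about 1 group in 20. Old replicate 1 stood apart for Col3a1 (ratio 0.833), the highest of its group, and for Col6a5 (0.92). Old replicate 2 stood apart for Col4a5 (0.861), at 454 against 592 to 618 in the others. Old replicate 3 stood apart for Col17a1 (0.936). Young replicate 2 stood apart for Col7a1 (0.879). Of these genes none was called in the comparison of ages.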

How the results depend on the processing

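Of the 15 members called, 7 higher and 4 lower kept their call in all 17 alternatives that kept the adjusted p of 0.05, and no member changed sign while called. Of the 27 not called, 8 were called in at least 1 alternative and 19 in none. Collagen genes higher numbered 9, with 8 to 9 when 1 array was left out and 1 at the study's threshold. Those lower numbered 6, with 4 to 8 when 1 array was left out (4 without old replicate 2, 3 or 4, 8 without old replicate 1), 10 with the filter on low values, which kept 34 members and tested 22518 probe sets, and 0 at the study's threshold. With the replicate number as a block, 8 were higher and 9 lower, fibrillar higher was 0, basement membrane lower was 4 and receptors higher was 1. With this block Col4a5, Col9a1 and Col18a1 gained a call as lower and Col5a1 lost its call. By their labels young and old samples share only a number. After the age effect was removed, same-numbered arrays correlated at 0.0971, 0.0190, 0.0218 and 0.0427, and not every array correlated best with its own number. Young replicate 4 with old replicate 3 was at 0.0633, young 3 with old 4 at 0.0603 and young 4 with old 1 at -0.124. Whether arrays of both ages were grouped in another way was not tested. Fibrillar higher (1) was 0 with quantile normalization, 2 with the smallest p or the mean of all probe sets, and 0 to 1 without 1 array. Fibrillar lower (1) was 0 with the mean of all probe sets and 0 to 2 without 1 array. Basement membrane lower (2) was 5 with the filter, 4 with trend and robust estimation, 5 with array weights and 1 to 3 without 1 array. Other classes lower (3) was 5 with the mean of all probe sets, and their median log2 fold change (-0.00) was 0.14 with the filter, 0.055 with array weights and -0.048 to 0.076 without 1 array. Hydroxylation genes lower (0) was 1 with quantile normalization, the filter, trend and robust estimation or the smallest p, 2 with array weights and 0 to 1 without 1 array. Propeptide and cross-linking genes lower (1) was 3 with trend and robust estimation and 2 with the smallest p or the mean. Receptors higher (3) was 1 to 4 without 1 array, and receptors lower (0) was 1 with the smallest p. Causes were not tested. With 4 pools per age, small differences near the threshold could not be settled, and the table gives no background signal by which to judge dim probe sets.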
